A study of Mus musculus with 24 samples.

Results

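Asparagine synthetase (Asns) and 8 other genes of the ATF4 stress response, Atf4, Atf5, Ddit3, Trib3, Chac1, Psat1, Phgdh and Sesn2, were followed pool by pool in the livers and hearts of Ppara knockout and wild-type mice. The set was chosen by the difference of Asns between male KO and male WT liver in these same arrays, so the KO minus WT values of the 9 genes are given below as a description, with no p-value. Counts of called genes among the 9 in those comparisons stand beside the share over all genes, and nothing is read from them. The 9 genes are 9 of the 18193 genes that the arrays measured with a probe set of their own. Each was represented by its brightest such probe set, and 21 probe sets were annotated to the 9 genes in all. Of these 21, 19 named a single gene and 2 were shared, 1 between Phgdh and Gm8096 and 1 between Phgdh and Gm6756.

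RNA was measured on 24 Affymetrix arrays, 12 per tissue, in 8 groups of 3 pools, and each pool held 4 animals. The groups in each tissue were female KO (pools 10 to 12), female WT (pools 7 to 9), male KO (pools 4 to 6) and male WT (pools 1 to 3). KO animals were PPARalpha knock-out mice and WT animals were wild-type mice, all of the SV129 strain, 10 to 12 weeks old and killed at zeitgeber time 14, which is 14 h after lights on. The labels name no knockout allele, cells it affects or feeding state. PPARalpha is the nuclear receptor that switches on fatty acid oxidation in liver and heart, and ketone production in liver. Values are log2 intensities on which 1 unit is a doubling.

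When amino acids run short or the endoplasmic reticulum or mitochondria are disturbed, kinases phosphorylate the initiation factor eIF2. General protein synthesis then falls, while the transcription factor ATF4 is made more efficiently from mRNA that is already there, so that ATF4 activity can change with little change in Atf4 mRNA. ATF4 pairs with C/EBP proteins at a composite DNA element and raises genes for amino acid synthesis and uptake, among them Asns, the enzyme that makes asparagine from aspartate and glutamine.

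To show where that element lies, the promoters of the 9 genes were searched for its core. RefSeq promoter windows on mouse build GRCm38.p6, each 300 bases long with 250 bases before the start of the gene and 50 after it, were matched for all 9 genes, 11 windows in total. The motif TGATGNAA, read on both strands, was present in the windows of 3 of the 9 genes, Asns, Chac1 and Trib3. Over all genes in the RefSeq table, 4.51% had the motif in a window, and 3.97% of the 32851 windows held it. A match of letters is a description of the window only. On the brightest probe sets, KO minus WT in male liver was 2.34 for Asns, -0.10 for Chac1 and 0.02 for Trib3. The second Trib3 probe set gave 0.37 there, with every KO pool above every WT pool. The 3 windows are shown 5′ to 3′ in the orientation of the gene, with the match in capitals.
Asns, chr6:7693160-7693459, minus strand: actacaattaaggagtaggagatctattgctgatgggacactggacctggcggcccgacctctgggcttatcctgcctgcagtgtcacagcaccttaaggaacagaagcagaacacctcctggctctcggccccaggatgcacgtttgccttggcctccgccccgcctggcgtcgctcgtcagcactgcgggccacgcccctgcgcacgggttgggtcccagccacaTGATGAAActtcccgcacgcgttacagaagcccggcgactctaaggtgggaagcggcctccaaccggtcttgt
Chac1, chr2:119350992-119351291, plus strand: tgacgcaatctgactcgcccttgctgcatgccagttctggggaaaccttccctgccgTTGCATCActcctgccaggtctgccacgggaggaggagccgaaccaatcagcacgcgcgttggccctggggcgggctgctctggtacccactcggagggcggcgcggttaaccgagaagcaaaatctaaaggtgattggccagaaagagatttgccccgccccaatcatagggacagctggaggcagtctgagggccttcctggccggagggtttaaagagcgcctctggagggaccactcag
Trib3, chr2:152344011-152344310, minus strand: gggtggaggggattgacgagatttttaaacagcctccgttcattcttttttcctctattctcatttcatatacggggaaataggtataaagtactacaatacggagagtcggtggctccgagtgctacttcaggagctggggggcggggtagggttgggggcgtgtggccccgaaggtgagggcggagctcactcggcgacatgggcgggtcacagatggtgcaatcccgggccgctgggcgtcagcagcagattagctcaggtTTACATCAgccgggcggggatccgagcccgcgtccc
In Asns the match began at base 228 of the window, 23 bases before the gene start, on the gene's own strand. In Chac1 it began at base 58 and in Trib3 at base 265, past the gene start, and both were on the opposite strand.

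Asns was measured by 1451095_at and 1433966_x_at. On 1451095_at, the male KO livers read 6.43, 4.68 and 6.32 in pools 4, 5 and 6, against 3.01, 4.10 and 3.29 in the male WT livers of pools 1, 2 and 3. The female KO livers read 3.15, 2.83 and 2.61 in pools 10, 11 and 12, against 2.60, 2.86 and 2.73 in the female WT livers of pools 7, 8 and 9. Every male KO liver was thus above every male WT liver, with pool 5 the lowest of the KO and pool 2 the highest of the WT, while the female groups overlapped. The male KO mean was 5.81 ± 0.98 and the male WT mean 3.47 ± 0.56 (SD, n = 3 each), a difference of 2.34 (SE 0.38), or 5.06-fold. This was the largest positive difference of the 18193 genes in male liver, and it is the value on which the set was chosen. The female KO mean was 2.86 ± 0.27 and the female WT mean 2.73 ± 0.13 (SD, n = 3 each), a difference of 0.13 (SE 0.38). Whether the male and female differences differ was not tested, since both belong to the comparison that chose the gene. In bulk tissue, more cells that express a gene and more RNA per cell cannot be told apart.

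**Figure D1:**
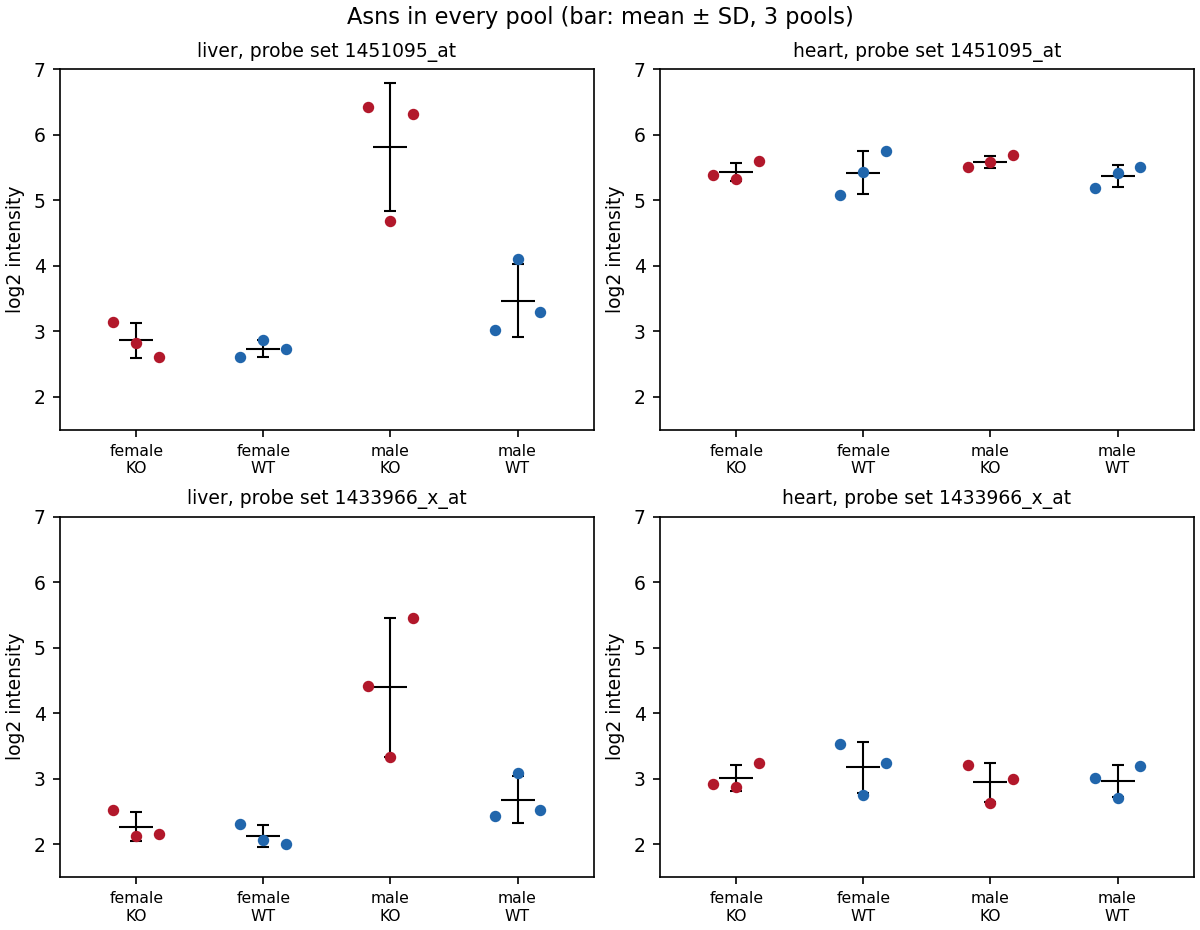
Log2 intensity of Asns (y axis) in every pool of the 4 groups of sex and genotype (x axis), in liver (left) and heart (right), for both probe sets (rows). Points are pools, red for KO and blue for WT, and bars give the mean ± SD of 3 pools. In liver the 3 male KO pools lie above all other pools on both probe sets, and in heart the 4 groups lie at a like height.

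The second Asns probe set, read on different probes, had the same order of groups in liver. On 1433966_x_at, the male KO livers read 4.41, 3.32 and 5.45, against 2.43, 3.09 and 2.52 in the male WT livers. The difference was 1.72 (SE 0.38), and again every male KO pool was above every male WT pool. In female liver the difference on this probe set was 0.14 (SE 0.38), with overlapping pools. Ordered by mean level on 1451095_at, the liver groups ran male KO, male WT, female KO and female WT. Of the neighbours in that order, male KO and male WT did not overlap, male WT and female KO overlapped, and so did female KO and female WT. The median probe set of the liver arrays read 2.43 to 2.49, so the female livers were within 1 unit of it, a range in which array intensities compress differences. No detection calls were used here.

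The spread of Asns among pools of 1 group was itself wide. Its within-group SD in liver was 0.58, against a median of 0.13 over all genes, and 99.9% of genes had a smaller one. In heart it was 0.20, larger than that of 90.7% of genes. The other 8 genes had within-group SDs of 0.09 to 0.26 in liver and 0.08 to 0.19 in heart.

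In heart, Asns differed little between genotypes. The male KO hearts read 5.51, 5.58 and 5.69, against 5.19, 5.42 and 5.50 in male WT hearts. The KO hearts were all above the WT hearts, but by a gap of 0.0038 between the nearest pools, and the difference of means was 0.22 (SE 0.14). The female KO hearts read 5.38, 5.32 and 5.59, against 5.09, 5.43 and 5.75 in female WT hearts, a difference of 0.01 (SE 0.14) with overlapping pools. On 1433966_x_at the heart differences were -0.02 in males and -0.16 in females, with overlapping pools in both sexes. The order of means in heart was male KO, female KO, female WT and male WT, and each neighbouring pair overlapped. Liver and heart arrays have different intensity distributions in the deposited values, so levels are not compared across the tissues.

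The transcription factors of the pathway come next. Atf4, whose protein drives the response, was flat in liver mRNA. The male KO livers read 7.34, 7.36 and 7.39, against 7.42, 7.36 and 7.43 in male WT livers, a difference of -0.04 (SE 0.10). The female KO livers read 7.17, 7.17 and 7.41, against 7.01, 7.19 and 7.38 in female WT livers, a difference of 0.05 (SE 0.10). The groups overlapped in both sexes. Of the 2 dimmer Atf4 probe sets, 1439258_at was higher in every male KO liver by 0.30 (SE 0.21) and 1438992_x_at gave -0.34 (SE 0.17) with overlapping pools, so the probe sets of Atf4 disagreed in sign in male liver. In female liver they gave 0.22 and 0.20, with overlapping pools.

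Atf5, a related factor that is itself controlled by translation and is abundant in liver, was the other gene that stood out. The male KO livers read 8.02, 7.95 and 8.11, against 7.64, 7.45 and 7.32 in male WT livers. The female KO livers read 8.68, 8.58 and 8.46, against 7.98, 7.88 and 7.42 in female WT livers. In both sexes every KO liver was above every WT liver. The male KO mean was 8.03 ± 0.08 and the male WT mean 7.47 ± 0.16, a difference of 0.55 (SE 0.13), or 1.47-fold. The female KO mean was 8.58 ± 0.11 and the female WT mean 7.76 ± 0.30 (SD, n = 3 each), a difference of 0.82 (SE 0.13), or 1.76-fold. Asns and Atf5 therefore had different patterns, Asns being highest in male KO liver and Atf5 in female KO liver. Atf5 was measured by a single probe set.

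Ddit3, which encodes the stress factor CHOP, did not move with Asns. The male KO livers read 3.62, 3.96 and 3.82, against 4.55, 3.89 and 3.67 in male WT livers, where pool 1 stood above the others. The difference was -0.23 (SE 0.17) in males and -0.09 (SE 0.17) in females, with overlapping pools. Its second probe set, 1443897_at, gave 0.02 in males and -0.01 in females. Trib3 encodes a pseudokinase that ATF4 and CHOP induce and that restrains ATF4. Its male KO livers read 2.63, 2.47 and 2.65, against 2.59, 2.55 and 2.54 in male WT livers, a difference of 0.02 (SE 0.09). Its female KO livers read 2.70, 2.73 and 2.63, against 2.40, 2.23 and 2.50 in female WT livers, a difference of 0.31 (SE 0.09) with every KO pool above every WT pool. The second Trib3 probe set turned this round: on 1456225_x_at the male livers differed by 0.37 (SE 0.13), every KO pool above every WT pool, and the female livers by -0.11 (SE 0.13), with overlapping pools. All of these Trib3 readings lay within 1 unit of the median probe set.

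Chac1 encodes an enzyme that breaks down glutathione and is among the genes most strongly induced by ATF4 in stressed cells. It read 3.20, 3.26 and 3.45 in male KO livers, against 3.15, 3.42 and 3.64 in male WT livers, a difference of -0.10 (SE 0.16). In female liver the difference was -0.07 (SE 0.16), and the pools overlapped in both sexes. Sesn2 encodes a leucine sensor that holds back the growth kinase mTORC1. On 1451599_at it read 3.25, 3.40 and 3.50 in male KO livers, against 3.15, 3.01 and 3.16 in male WT livers, a difference of 0.28 (SE 0.14) with no overlap. Its other probe set, 1425139_at, gave 0.06 (SE 0.14) with overlapping pools, and the female differences were 0.08 and 0.02.

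Phgdh and Psat1 encode consecutive enzymes of serine synthesis from a glycolytic intermediate. Phgdh read 4.32, 4.35 and 4.35 in male KO livers, against 4.23, 3.94 and 4.24 in male WT livers, a difference of 0.21 (SE 0.17) with no overlap. The other 3 Phgdh probe sets that name Phgdh alone gave 0.11 to 0.18 in male liver and -0.03 to 0.04 in female liver, all with overlapping pools, and the 2 shared ones gave 0.10 and -0.08 in male liver. Psat1 read 1.97, 2.51 and 2.08 in male KO livers, against 2.31, 2.22 and 2.11 in male WT livers, a difference of -0.03 (SE 0.12). In female liver it read 2.29, 2.20 and 2.23 in KO pools, against 2.10, 1.98 and 2.15 in WT pools, a difference of 0.17 (SE 0.12) with no overlap. Its other probe set, 1454607_s_at, gave -0.05 in male and -0.02 in female liver, both with overlapping pools. Psat1 lay below the median probe set in nearly all livers, so its values carry little information.

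**Figure D2:**
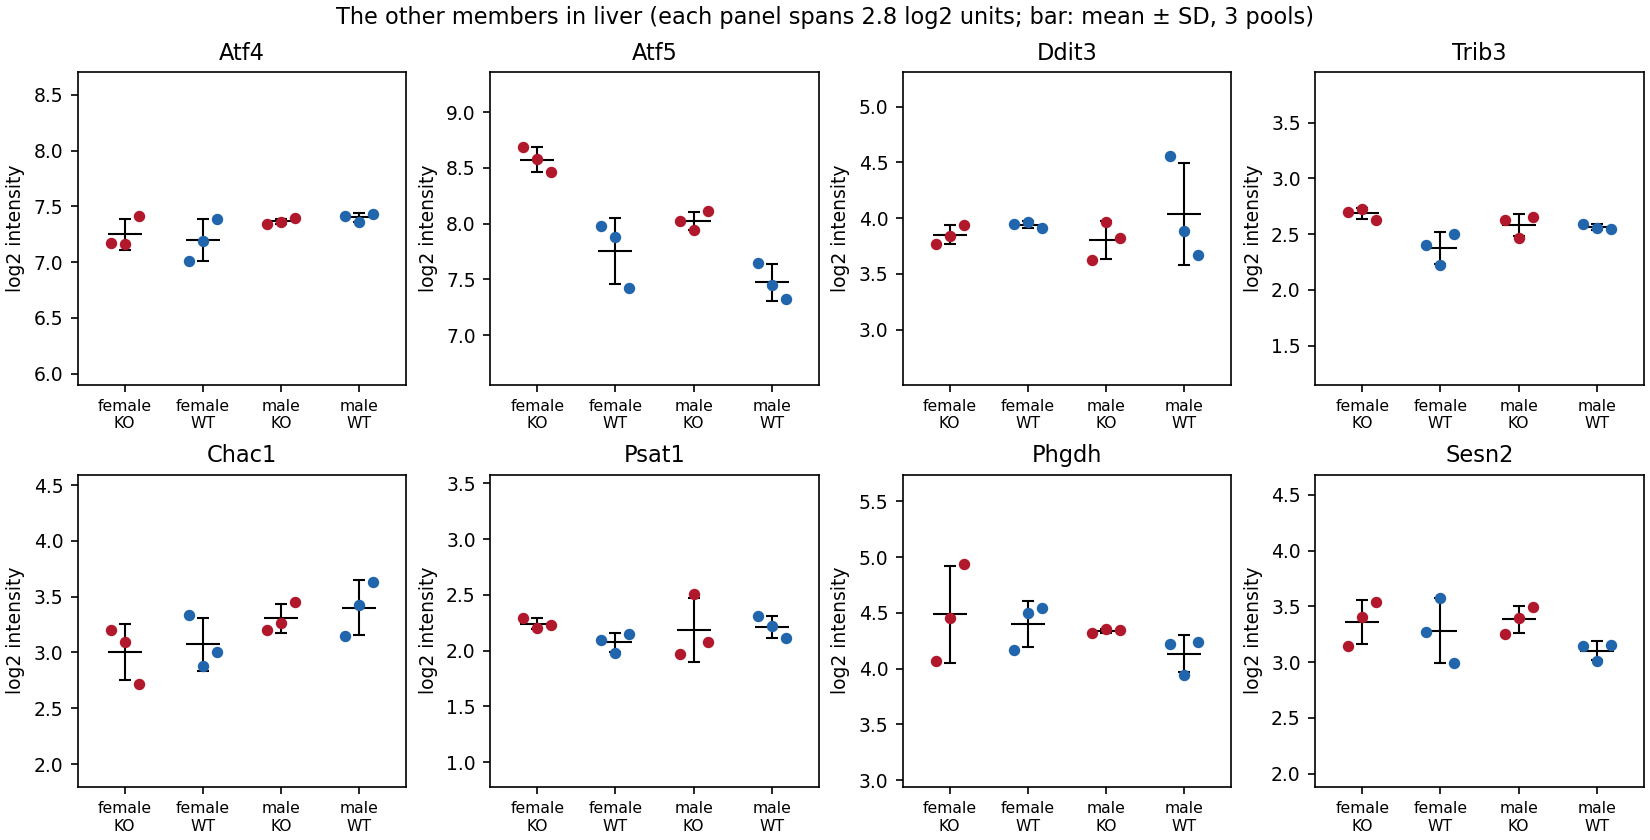
Log2 intensity in liver (y axis) of the 8 genes other than Asns, in every pool of the 4 groups of sex and genotype (x axis). Points are pools, red for KO and blue for WT, bars give the mean ± SD of 3 pools, and every panel spans the same number of log2 units. Atf5 shows KO pools above WT pools in both sexes, and in the other 7 panels KO and WT pools overlap or are separated by at most 0.13.

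Counted together, 1 of the 9 genes passed an adjusted p of 0.05 over all genes in male liver (limma), where 0.605% of genes were called, and that gene was Asns. In female liver 1 of the 9 was called, where 0.813% of genes were, and that gene was Atf5. Both counts belong to contrasts that the choice of genes used. The calls, and whether they held with pools left out, are therefore no support for the set. Pools did not overlap for 4 of the 9 genes in male liver (Asns, Atf5, Phgdh and Sesn2, all higher in KO), against 16.7% of all genes. They did not overlap for 3 of the 9 in female liver (Atf5, Trib3 and Psat1, all higher in KO), against 10.4% of all genes. The median KO minus WT difference of the 9 genes was 0.02 in male liver, against 0.01 over all genes, and 0.08 in female liver, against -0.0015 over all genes. In male liver the 8 genes other than Asns ranged between -0.23 and 0.55. The call of Asns held without WT pool 2 and without KO pool 5, and no member was called in male liver without WT pool 1, WT pool 3, KO pool 4 or KO pool 6, where the Asns difference was 2.03 to 2.25. The call of Atf5 in female liver was lost in a fit of those 6 arrays alone and held without each of the 6 pools.

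**Figure D3:**
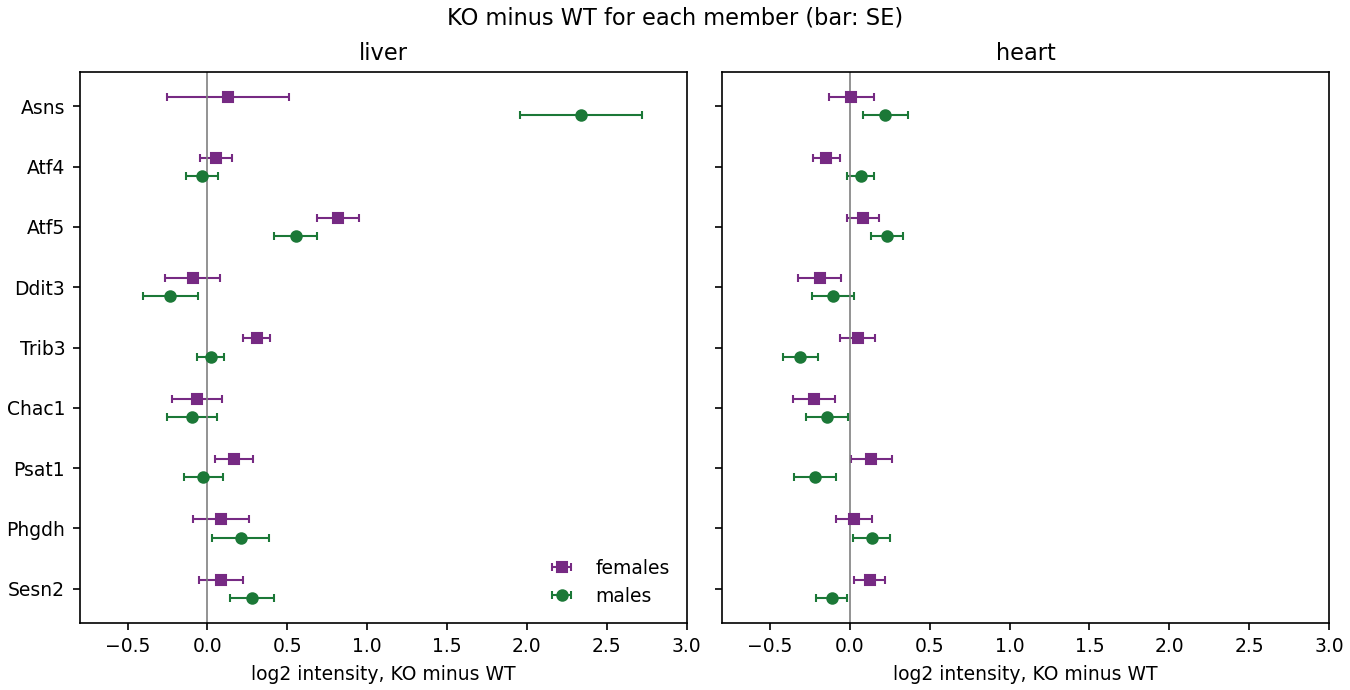
KO minus WT difference of mean log2 intensity (x axis) for each of the 9 genes (rows), in liver (left) and heart (right), with females as purple squares and males as green circles and bars of 1 SE. Asns in male liver, at 2.34, lies far to the right of all other points, and Atf5 in liver, at 0.82 in females and 0.55 in males, is next.

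In heart, none of the 9 genes was called in either sex (limma), where 0.401% of genes were called in males and 0.533% in females. At an unadjusted p under 0.05 there were 2 of the 9 in males, against 6.58% of all genes, and 0 of the 9 in females, against 6.85% of all genes. These counts too belong to contrasts that the choice of genes used. Pools did not overlap for 3 of the 9 genes in males, against 11.4% of all genes, and for 1 of the 9 in females, against 12.1%. Atf5 read 6.30, 6.22 and 6.31 in male KO hearts, against 6.13, 6.13 and 5.88 in male WT hearts, a difference of 0.23 (SE 0.10) with no overlap. In female hearts Atf5 differed by 0.08 (SE 0.10) and overlapped. Trib3 went the other way in males, at 3.16, 2.93 and 3.25 in KO hearts, against 3.56, 3.29 and 3.43 in WT hearts, a difference of -0.31 (SE 0.11) with no overlap. Its second probe set gave 0.17 in the same hearts, the opposite sign, with every KO pool above every WT pool. In female hearts Trib3 differed by 0.05 (SE 0.11).

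The remaining heart values were small. Atf4 differed by 0.07 (SE 0.09) in males and -0.15 (SE 0.09) in females, and its dimmer probe sets by 0.21 and -0.02 in males and -0.04 and 0.12 in females. Ddit3 differed by -0.11 (SE 0.13) in males and -0.19 (SE 0.13) in females, and Chac1 by -0.14 (SE 0.13) in males and -0.22 (SE 0.13) in females. The second Ddit3 probe set, 1443897_at, gave 0.07 in males, the opposite sign, and -0.07 in females, with overlapping pools. Psat1 differed by -0.22 (SE 0.13) in males and 0.13 (SE 0.13) in females, where the KO hearts read 2.68, 2.83 and 2.90, against 2.66, 2.68 and 2.68 in WT hearts, with a gap of 0.0015 between the nearest pools. On 1454607_s_at it differed by -0.00023 in males and 0.0018 in females, with overlapping pools. Phgdh differed by 0.14 (SE 0.12) in males and 0.03 (SE 0.12) in females, and Sesn2 by -0.11 (SE 0.10) in males and 0.12 (SE 0.10) in females. The other probe sets that name Phgdh alone gave -0.12 to 0.12 in males and -0.17 to 0.10 in females. The shared ones gave 0.04 and 0.21 in males and -0.09 and -0.06 in females. The other Sesn2 probe set, 1425139_at, had the opposite sign in both sexes, at 0.07 in males and -0.06 in females, with overlapping pools. Over the 9 genes the median difference was -0.11 in male hearts and 0.03 in female hearts, against 0.0038 and -0.0053 over all genes.

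**Figure D4:**
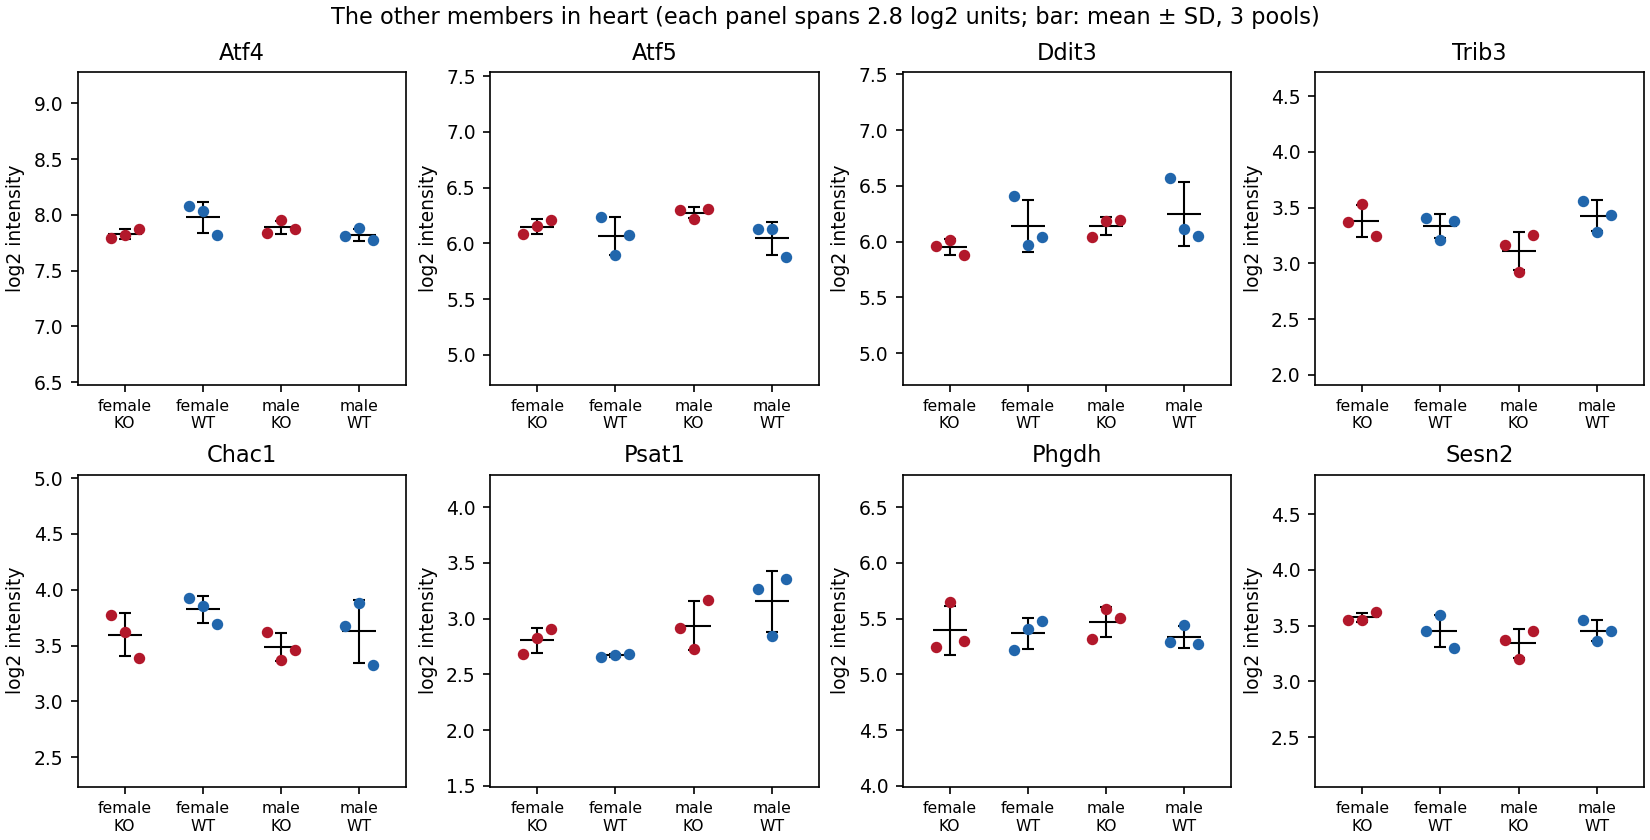
Log2 intensity in heart (y axis) of the 8 genes other than Asns, in every pool of the 4 groups of sex and genotype (x axis), drawn as for liver, with points for pools and bars for the mean ± SD of 3 pools. Groups overlap in most panels, with Trib3 lower and Atf5 higher in male KO than in male WT hearts. The second Trib3 probe set, not drawn, had the opposite sign in the male hearts.

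Ppara itself checked the genotype labels. It averaged 7.37 ± 0.12 in male KO livers and 8.49 ± 0.18 in male WT livers (SD, n = 3 each), and every KO pool was below every WT pool in both sexes of both tissues, by 1.05 to 1.53 on the mean. Ppara probes still gave signal in KO tissue, and the labels do not say which exons they read. Arrays of 1 tissue correlated at 0.977 or more with each other. In heart, male KO pool 4 read 6.62 for Xist, the RNA made from the inactive X of females, against 3.12 or less in the remaining male hearts. Female KO pool 10 read 3.34 for the Y-linked Eif2s3y, against 2.50 or less in the remaining female hearts. Both heart arrays go against their labelled sex in part. Without both of them the Asns difference was 0.26 in male and 0.04 in female hearts. The Atf5 difference was then 0.22 in male and 0.12 in female hearts, and the Trib3 difference -0.34 in male and 0.05 in female hearts. The livers of these pools did not, at 1.78 for Xist in pool 4 and 2.10 for Eif2s3y in pool 10. Eif2s3y read 3.43, 3.08 and 4.46 in male KO livers, against 5.18, 4.73 and 4.99 in male WT livers. Female livers read 2.16 or less for Eif2s3y, and Xist read 2.07 or less in every male liver. The part of this Eif2s3y difference in the liver values was not tested. The summed intensity of 8 skeletal muscle markers was 74.6 to 175.7 in male KO hearts, against 65.9 to 72.0 in male WT hearts, and its part in the heart values was not tested. The summed intensity of 4 atrial markers was 6774 to 8884 in female KO hearts, against 9451 to 9963 in female WT hearts, with 2 of the 4 called lower in KO (limma), and its part was not tested either.

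Markers of other cells were read beside the Asns difference in male liver. The summed intensity of 6 measured hepatocyte markers was 40118 to 40831 in male KO livers, against 40415 to 41879 in male WT livers. Pancreatic acinar cells make much Asns, and the 9 measured acinar markers summed to 108 to 142 in male KO livers, against 117 to 138 in male WT livers, and the ranges overlapped. Most of that sum was Cela1, at 6.17 in male KO and 6.40 in male WT livers, and the other 8 acinar markers read 2.23 to 3.07 in male KO and 2.11 to 2.88 in male WT livers, near the median probe set. Of 3 measured erythroid markers the sum was 273 to 313 in male KO livers, against 192 to 216 in male WT livers. Nearly all of that sum was Alas2, the enzyme that starts haem synthesis in red cell precursors. Alas2 read 8.11 in male KO and 7.61 in male WT livers, but 4.40 in female KO and 4.93 in female WT livers. The haemoglobin chain Hba-a1 read 2.30 in male KO and 2.28 in male WT livers, and Slc4a1 2.45 and 2.48. Hba-a1 and Slc4a1 lay near the median probe set, so their values carry little information. The part of erythroid cells in the Asns difference was not tested. No gene of the 14 marker lists was called between KO and WT liver in either sex. The ratio of 3′ to 5′ signal of Gapdh, a measure of RNA integrity given here as a log2 difference, was 0.449 to 0.616 in male KO livers, against 0.493 to 0.617 in male WT livers. That of Actb was 1.19 to 1.63 in male KO livers, against 1.19 to 1.33 in male WT livers, and its part in the Asns difference was not tested.

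The sexes were then compared within WT mice. The choice of genes did not use this contrast itself, but the same WT arrays are in the KO against WT contrasts that it used. The p-values of the 9 genes here are therefore not fully independent of that choice. In WT liver, where 1.76% of genes were called and 20.6% had pools that did not overlap, none of the 9 genes was called (limma), and none had an unadjusted p under 0.05, against 12.3% of all genes. Asns, given as a description, averaged 2.73 ± 0.13 in WT females and 3.47 ± 0.56 in WT males (SD, n = 3 each), a difference of -0.74 (SE 0.38) with every female pool below every male pool. Its second probe set gave -0.56 with no overlap. Trib3 averaged 2.38 in WT females and 2.56 in WT males, a difference of -0.18 (limma adjusted p = 0.409), also with no overlap, but its second probe set gave 0.31, the opposite sign, with overlapping pools. The dimmer Atf4 probe sets disagreed as well, at -0.61 with every female pool below every male pool and 0.45 with every female pool above, while the main Atf4 probe set gave -0.20 (limma adjusted p = 0.432) with overlapping pools. Atf5 averaged 7.76 in WT females and 7.47 in WT males, a difference of 0.29 (limma adjusted p = 0.410) with overlapping pools. The adjusted p of the 8 genes other than Asns ran between 0.409 and 0.874.

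In WT heart, where 0.0275% of genes were called and 11.3% had pools that did not overlap, none of the 9 genes was called (limma), and 1 had an unadjusted p under 0.05, against 6.18% of all genes. That gene was Psat1, which read 2.66, 2.68 and 2.68 in WT females, against 3.26, 2.84 and 3.35 in WT males, a difference of -0.48 (SE 0.13, limma adjusted p = 0.676) with every female pool below every male pool. Its other probe set gave -0.04 in the same hearts, with overlapping pools. Asns in WT heart averaged 5.42 ± 0.33 in females and 5.37 ± 0.16 in males (SD, n = 3 each), a difference of 0.05 (limma adjusted p = 0.981). A difference that misses the threshold with 3 pools a group does not show that the sexes are alike.

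Whether the other genes followed Asns from pool to pool was asked from the deviations of each pool from its own group mean, which hold no genotype or sex difference. Each of the 8 genes was correlated with Asns over the 12 arrays of a tissue, 16 relations in all, with an exact two-sided permutation of the pools within groups that can give a p no smaller than 0.00077. None of the 16 passed after Benjamini-Hochberg adjustment, and the lowest adjusted p was 0.391. In liver the 2 nominal targets that share the promoter motif gave r = 0.40 for Trib3 (rho = 0.36, exact permutation p = 0.280) and r = 0.20 for Chac1 (rho = 0.17, exact permutation p = 0.490). Atf4 gave r = -0.13 (rho = -0.24, exact permutation p = 0.383) and Atf5 r = 0.13 (rho = 0.08, exact permutation p = 0.563).

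The largest relations in liver by size, those of Psat1 and Ddit3, were negative. Psat1 gave r = -0.77 (rho = -0.52, exact permutation p = 0.138, adjusted 0.543), and without male WT pool 2 and male KO pool 5, the 2 arrays farthest in Asns, r was -0.29, so the relation rests on those pools. KO pool 5, lowest of its group for Asns at 4.68, was highest for Psat1 at 2.51. Ddit3 gave r = -0.51 (rho = -0.60, exact permutation p = 0.170) and -0.57 without those 2 arrays. Phgdh gave r = -0.33 (rho = -0.45, exact permutation p = 0.0517, adjusted 0.391), and Sesn2 r = -0.22 (rho = -0.33, exact permutation p = 0.387). None of the 8 genes passed the test for tracking Asns across the pools of a group in liver.

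**Figure D5:**
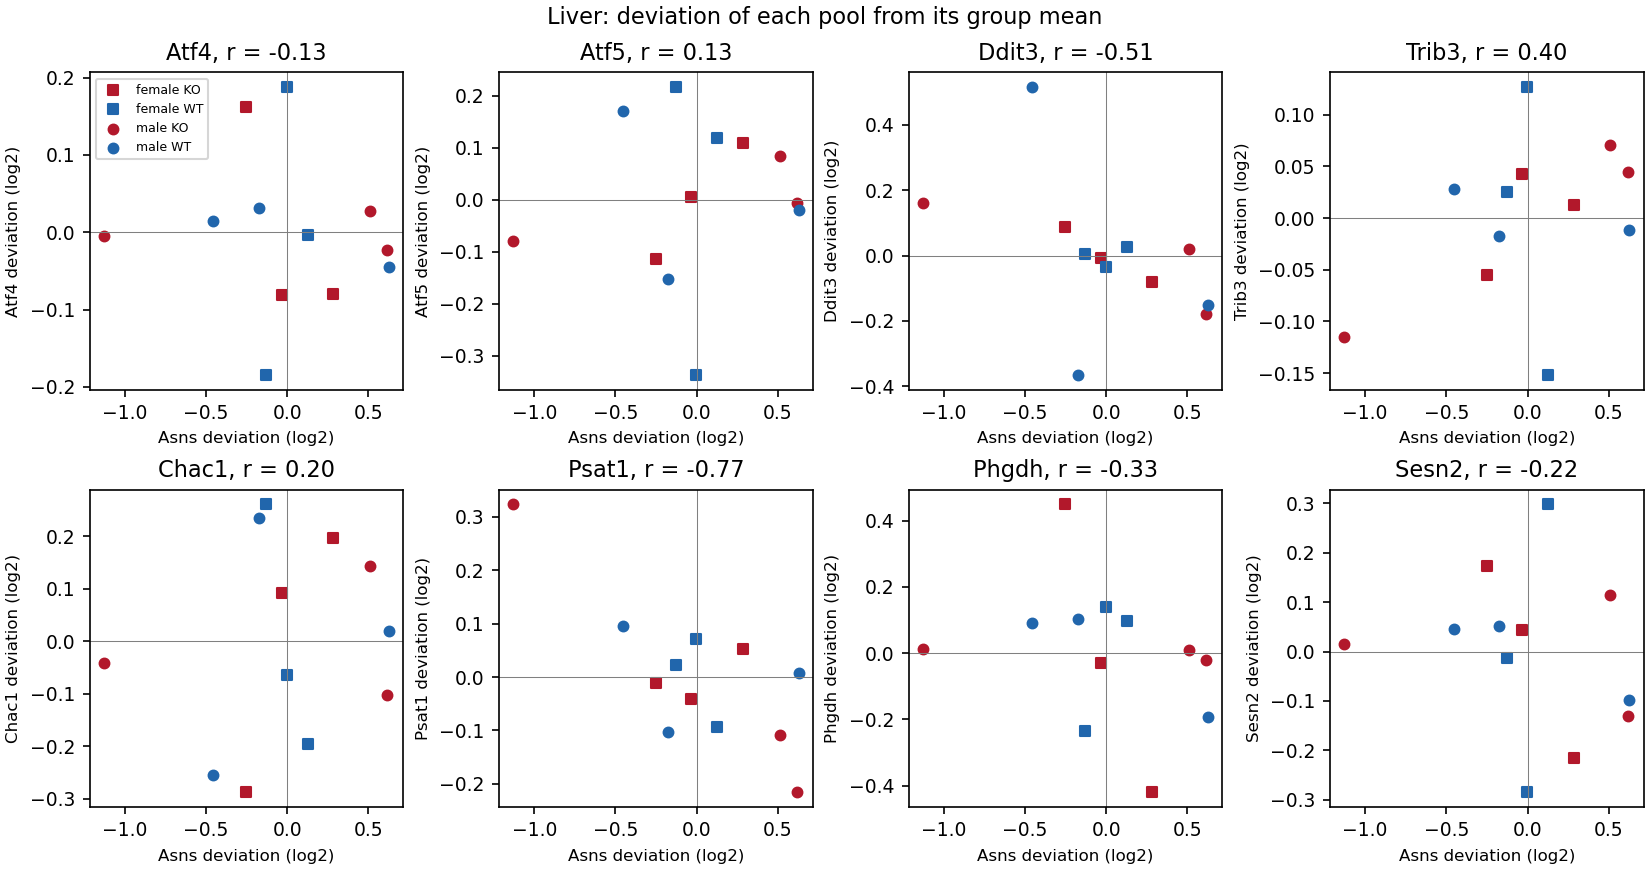
Deviation of each liver pool from its group mean, in log2 units, for Asns (x axis) against each of the 8 other genes (y axis), with squares for females, circles for males, red for KO and blue for WT. Asns deviations are widest among male pools, with KO pool 5 at the far left, and the fall of Psat1 with Asns (r = -0.77) leans on that pool.

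In heart, Ddit3 gave r = -0.71 (rho = -0.67, exact permutation p = 0.0733, adjusted 0.391) and Chac1 r = -0.55 (rho = -0.61, exact permutation p = 0.0725, adjusted 0.391). Without female WT pools 7 and 9, the 2 arrays farthest in Asns, these were -0.69 and -0.56. Atf4 gave r = -0.56 (rho = -0.40, exact permutation p = 0.375) and 0.25 without those arrays. The other 5 genes gave r between -0.39 and 0.29 in heart, with exact permutation p of 0.377 or more.

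Other genes of the pathway were counted from 9 lists that hold 120 measured genes outside the set. The lists were chosen with earlier results of these data known, which limits what a call among them can show. They cover further ATF4 targets and regulators, amino acid synthesis, asparagine handling, amino acid transporters, cytosolic tRNA synthetases, the eIF2 kinases with eIF2 and eIF2B, ER chaperones, mitochondrial stress and p53 targets. In male liver 1 of the 120 was called higher in KO and 0 lower (limma), 0.833% against 0.605% of all genes, and 15 of the 120 (12.5%) had an unadjusted p under 0.05, against 8.75% of all genes. That gene was Oat, which encodes the mitochondrial enzyme that links ornithine to glutamate and proline. Oat read 10.78, 10.67 and 10.65 in male KO livers, against 9.78, 9.96 and 10.18 in male WT livers, with no overlap. It averaged 10.70 ± 0.07 in male KO and 9.97 ± 0.20 in male WT livers (SD, n = 3 each), a difference of 0.73 (SE 0.12, limma adjusted p = 0.0165). The call was kept without WT pool 3 and lost without each of the other 5 male pools. In female liver Oat averaged 11.02 ± 0.21 in KO and 10.57 ± 0.15 in WT (SD, n = 3 each), a difference of 0.45 (SE 0.12, limma adjusted p = 0.187), also with every KO pool above every WT pool.

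None of the 120 was called in female liver or in the hearts of either sex (limma). At an unadjusted p under 0.05 there were 16 (13.3%) in female liver, against 6.87% of all genes, 13 (10.8%) in male heart, against 6.58%, and 18 (15%) in female heart, against 6.85%. With a trended and robust variance, 3 amino acid synthesis genes, 1 ATF4 target or regulator and 1 transporter were called in female liver, 1 ATF4 target or regulator in male heart and 1 p53 target in female heart. The further ATF4 targets and regulators, 16 measured genes, had a median KO minus WT difference of -0.04 in male liver and -0.13 in female liver, against 0.01 and -0.0015 over all genes. Genes of this list went both ways. Ddit4 differed by 0.75 and 0.72 (SE 0.38 each) and Vldlr by 0.37 and 0.47 (SE 0.11 each) in male and female liver. In the same order Vegfa differed by -0.37 and -0.15 (SE 0.13 each) and Fgf21 by -0.32 and -0.33 (SE 0.17 each). None of these genes was called in the fit reported. The group means of Vldlr and Fgf21 in liver lay within 1 unit of the median probe set, where array intensities compress differences. The 19 tRNA synthetases had medians of -0.06 and -0.07 and the 15 amino acid transporters 0.01 and 0.02 in male and female liver. The 4 genes of asparagine handling had medians of -0.02 and 0.02, and the 20 ER chaperones and related genes -0.02 and -0.16. The largest list median in male liver by size was -0.09, for 7 p53 targets. In WT liver, 3 of the 120 were higher in females and 1 was lower (limma), 3.33% against 1.76% of all genes. They were Oat at 0.59 (limma adjusted p = 0.0285), the lipoprotein receptor gene Vldlr at 0.51 (0.0247), the folate enzyme gene Mthfd1 at 0.36 (0.0384) and the amino acid transporter gene Slc36a1 at -0.59 (0.0252). At an unadjusted p under 0.05 (limma) there were 20 of the 120 (16.7%) between the sexes in WT liver, against 12.3% of all genes. The list share was thus above that of all genes in the sex contrasts too. None of the 120 was called between the sexes in WT heart (limma), where 12 (10.0%) had an unadjusted p under 0.05, against 6.18% of all genes.

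The 5 genes whose level most resembled that of Asns in each tissue held none of the other 8. Only genes above the median level of the tissue were compared. Trib3 and Psat1 in both tissues and Sesn2 in heart lay below it and could not enter. Over the 12 liver arrays, 9095 other genes lay above the median level. Those with clone or locus names were not ranked. Of the rest, the highest Pearson correlations with Asns were Ing1 at 0.913, A2ml1 at 0.905, Nat8 at 0.891, Pccb at 0.871 and Etnppl at 0.864. These values are a description, since the 12 arrays share the same group differences. Nat8 encodes an acetyltransferase, and read 5.96 to 6.36 in male KO livers, against 3.95 to 4.91 in male WT livers. In female livers it read 3.25, 3.25 and 3.29 in KO pools, against 3.03, 3.00 and 3.31 in WT pools. Nat8 thus had the group order of Asns, with male KO highest, but its KO pool 5 was not the lowest of its group. Etnppl, an enzyme that breaks down phosphoethanolamine, averaged 9.25 in male KO and 8.45 in male WT livers, and 8.15 in female KO and 7.95 in female WT livers. Ing1, a chromatin reader, shared the low pool 5, at 5.30, 4.82 and 5.45 in male KO livers, against 4.70, 4.84 and 4.74 in male WT livers.

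Among the 8 other genes of the set, Chac1 had the highest correlation with Asns over the liver arrays, at 0.41 and rank 2307 of 18192, followed by Atf4 at 0.34 and rank 3190. Atf5 was at -0.01 and rank 9475, and Ddit3 at -0.36 was lowest. In heart the nearest genes, clone and locus names again left out, were Laptm5 at 0.839, Med23 at 0.825, Brat1 at 0.823, Fuca1 at 0.813 and Jun at 0.812. Phgdh, at 0.41 and rank 1758, was the nearest of the set in heart, and Chac1 and Ddit3 were farthest, both at -0.56.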

How the data were processed

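The authors deposited log2 intensities of 45101 probe sets, made with RMA (background correction, quantile normalization and probe set summaries) per the submitters' processing notes; its version and settings are not given in the sources used here. Sorted values differed by 0.0185 on average within liver and 0.658 between tissues, so each tissue was fitted alone. Probe sets naming 1 gene (34945; 932 named several, 9160 none) were reduced to the brightest per gene, 18193 genes. Group means were compared with limma 3.58.1 (lmFit, eBayes; R 4.3.3), two-sided, Benjamini-Hochberg over all genes, threshold 0.05; 12 arrays of a tissue shared 1 spread. The number of pools, 3 per group, limits precision. The procedure was tested on simulated data. The 9 genes and the lists were chosen with earlier results of these data known. Named genes were the 9, Ppara, list genes past the threshold (up to 3 per list with the largest difference), and the 5 genes per tissue most correlated with Asns. Genes with clone or locus names could not be among those 5. Alternatives were arrays in the fit, variance model, normalization, centring, probe set choice, dim genes and left-out pools. List genes without a single-gene probe set were not analysed here.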

Additional observations from a re-analysis of the deposited data

How the results depend on the processing

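No paired analysis was possible because KO and WT pools, and female and male pools, share no pool numbers. The KO minus WT value of Asns kept its sign under every alternative run in liver males (2.03 to 2.90), and no called value changed sign. Counts of called genes moved by over 1.5 times as follows, and the cause was not tested. In a fit of the 6 compared arrays alone, 169 genes were called in male liver (110 in the fit reported) and 55 in female liver (148). Without heart pools 4 and 10, 59 were called in female heart (97), and with probe sets of a gene averaged 3 were called between the sexes in WT heart (5). With 1 pool left out, fewer pools were in each fit, and counts ran between 55 and 80 in male liver, 88 and 203 in female liver, 206 and 260 between the sexes in WT liver, 61 and 82 in female heart and 0 and 1 between the sexes in WT heart. Of the 9 genes, Atf5 was also called in male liver in the fit of 6 arrays and with quantile normalization run again, and in place of Asns with a trended and robust variance. Of the 36 KO minus WT values of the 9 genes, 15, each of 0.23 or less in size, changed sign under some alternative. With quantile normalization run again, Atf4 became 0.03 and Trib3 -0.0011 in male liver and Asns -0.00064 in female heart, and with arrays centred Trib3 became -0.0020 in male liver. With probe sets averaged, Asns became -0.08, Trib3 -0.05 and Phgdh -0.04 in female heart. With 1 pool left out, 14 of the 36 changed sign, to values between -0.16 and 0.08, among them Asns in female liver (-0.01). List counts moved by 1 gene with 1 setting each for tRNA synthetases, transporters and mitochondrial stress in male liver and mitochondrial stress in female liver, and with 1 pool left out for mitochondrial stress in male liver and ATF4 targets in female liver. Other values without a call changed sign as follows. With probe sets averaged, females minus males was 0.061 for Trib3 in WT liver, and 0.0048 for Ddit3, 0.086 for Trib3 and 0.048 for Sesn2 in WT heart. The within-group r with Asns became 0.19 for Atf4 and 0.10 for Phgdh in liver, and 0.028 for Atf4, 0.14 for Atf5, 0.31 for Ddit3, 0.15 for Trib3 and 0.18 for Sesn2 in heart. Without the 2 arrays farthest in Asns it became -0.0086 for Atf5 and -0.14 for Trib3 in liver, and 0.25 for Atf4 and -0.12 for Phgdh in heart. With 1 pool left out, females minus males ran between -0.28 and 0.16 for Ddit3 in WT liver, and in WT heart between -0.11 and 0.22 for Asns, -0.059 and 0.11 for Atf5, -0.24 and 0.057 for Ddit3, -0.022 and 0.11 for Phgdh and -0.078 and 0.067 for Sesn2. Likewise r ran between -0.043 and 0.31 for Atf5 and -0.13 and 0.68 for Trib3 in liver, and between -0.71 and 0.049 for Atf4, -0.56 and 0.087 for Atf5, -0.025 and 0.67 for Phgdh and -0.43 and 0.22 for Sesn2 in heart.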
